A study of Mus musculus with 15 samples.

Results

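Mxd1 and Mxi1, 2 genes whose proteins oppose Myc, were followed in a mouse lymphoid ES (embryonic stem) cell line that was treated and compared with the same line left untreated. The members were all probes of the array whose updated gene symbol is Mxd1 (older symbol Mad) or Mxi1, which gave 1 probe for each gene among 20205 probes. They stand for 2 of the 9834 genes named on the array. On each of 15 two-colour cDNA arrays, RNA of the treated line was hybridised together with RNA of the untreated line. The treated RNA carried Cy5 on 8 arrays (numbers 1 to 8), called forward arrays here, and Cy3 on 7 (numbers 9 to 15), the dye swaps. The labels give neither the agent, its dose and duration, nor the strain, the genotype and the number of cultures. Their protocol text speaks of organs and a reference pool of control animals, which is not what the channel names say, and the channel names were followed. So p-values reflect only how far arrays differ, which may be technical. In bulk RNA, fewer cells of a type and less RNA per cell cannot be told apart.

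Myc, Max and the Mad proteins form a network of basic helix-loop-helix leucine zipper factors. Myc binds DNA at E-boxes together with its partner Max and activates genes of growth, ribosome production and the cell cycle. Mxd1 and Mxi1 compete for the same partner and the same DNA letters, and their N-terminal Sin3 interaction domain recruits the Sin3 corepressor with its histone deacetylases. Some Mad proteins, though not all, are known to rise when blood cells stop dividing and mature, Mxd1 above all in the myeloid lineage. Mxi1 is also known as a target of the hypoxia-inducible factors.

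The DNA just upstream of the transcription starts is shown because both genes encode E-box factors that lie on opposite sides of 0 below. The windows hold the 250 bases before a start (RefSeq, GRCm38.p6) and are written 5′ to 3′ on the strand of the gene. Searched on both strands were the E-box CACGTG, the general E-box CANNTG, which includes it, and ACGTG and GCGTG, the cores of hypoxia response elements. Capitals mark every match.
Mxd1, chr6:86669160-86669409, minus strand: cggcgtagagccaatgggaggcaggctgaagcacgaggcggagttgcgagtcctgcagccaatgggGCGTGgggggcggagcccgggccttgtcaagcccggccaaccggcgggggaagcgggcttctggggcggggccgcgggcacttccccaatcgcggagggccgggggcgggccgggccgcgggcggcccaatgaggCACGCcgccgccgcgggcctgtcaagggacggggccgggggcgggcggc
Mxi1 upstream start, chr19:53310256-53310505, plus strand: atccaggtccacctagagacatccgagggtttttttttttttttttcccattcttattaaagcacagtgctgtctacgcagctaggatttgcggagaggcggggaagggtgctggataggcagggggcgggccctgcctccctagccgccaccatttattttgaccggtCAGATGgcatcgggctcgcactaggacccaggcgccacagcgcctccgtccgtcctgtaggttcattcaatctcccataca
Mxi1 downstream start, chr19:53329163-53329412, plus strand: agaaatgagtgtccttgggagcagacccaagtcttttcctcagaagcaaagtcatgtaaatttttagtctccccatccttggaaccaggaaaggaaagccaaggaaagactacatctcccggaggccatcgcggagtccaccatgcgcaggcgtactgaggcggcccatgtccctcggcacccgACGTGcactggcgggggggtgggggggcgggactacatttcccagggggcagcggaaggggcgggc
The Mxd1 window had 78.4% G and C, above 98.3% of 32817 such windows of the genome, whose median was 52.4%. It held no E-box of either form and 2 matches of GCGTG, at 184 and 49 bases before the start, the nearer one on the opposite strand. The Mxi1 windows shown had 55.2% and 60.0% G and C. The first held 1 CANNTG match, at 81 bases before the start, and the second 1 ACGTG match, at 66 bases. A further listed start of Mxi1 lies downstream of both starts shown. Its window, at chr19:53329445-53329694, lies wholly past the start called downstream here. That window held 1 match each of CANNTG and ACGTG and had 77.2% G and C. Of all windows, 6.02% held CACGTG, 66.2% CANNTG, 16.6% ACGTG and 28.1% GCGTG. These matches describe letters and no binding was measured here.

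Mxd1 was below 0 and Mxi1 above 0 in the deposited log2 ratio. This contrast chose both genes, so the values are a description without a test. A ratio above 0 was read as more RNA in the treated line. That reading rests on placeholder values for an empty channel, which are above 0 on all forward arrays and below 0 on all dye swaps. Swaps already turned give this pattern if Cy3 was always the empty channel. Swaps not turned give it if the untreated RNA always was. Arrays of opposite orientation correlated at a median r of -0.058 over probes, against 0.091 among forward arrays and 0.034 among dye swaps. Limma called 4 genes for treatment as deposited and 254 with the swaps turned. The reading was chosen after the data were seen and the labels do not settle it.

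On the 8 forward arrays, Mxd1 ranged from -1.39 (array 2) to -0.05 (array 6), with a median of -0.61. On the 7 dye swaps it ranged from -0.81 (array 15) to 0.06 (array 10), with a median of -0.28. Mxd1 was thus below 0 on 14 of 15 arrays, array 10 being the exception, and the ranges of the orientations overlapped. Arrays 1 and 2 stood lowest, at -1.19 and -1.39. Averaging the means of the orientations gave a treatment estimate of -0.49 ± 0.10 (SE, n = 15 arrays), a ratio of 0.710. As deposited it was the 35th lowest of 9720 genes tested, and with the dye swaps turned it would be the 1427th lowest. The SD of Mxd1 over arrays was 0.41, larger than that of 56.6% of genes or equal to it.

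Mxi1 ranged from 0.04 (array 5) to 1.21 (array 7) on the forward arrays, with a median of 0.29. On the dye swaps it ranged from -0.13 (array 15) to 0.35 (array 12), with a median of 0.12. It was above 0 on 14 of 15 arrays, array 15 being the exception, and here too the orientations overlapped. Arrays 7, 3 and 2 stood highest, at 1.21, 0.77 and 0.76. The treatment estimate was 0.30 ± 0.08 (SE, n = 15 arrays), a ratio of 1.23. As deposited it was the 286th highest of the 9720 genes, and with the dye swaps turned it would be the 1648th highest. The SD over arrays was 0.35.

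**Figure D1:**
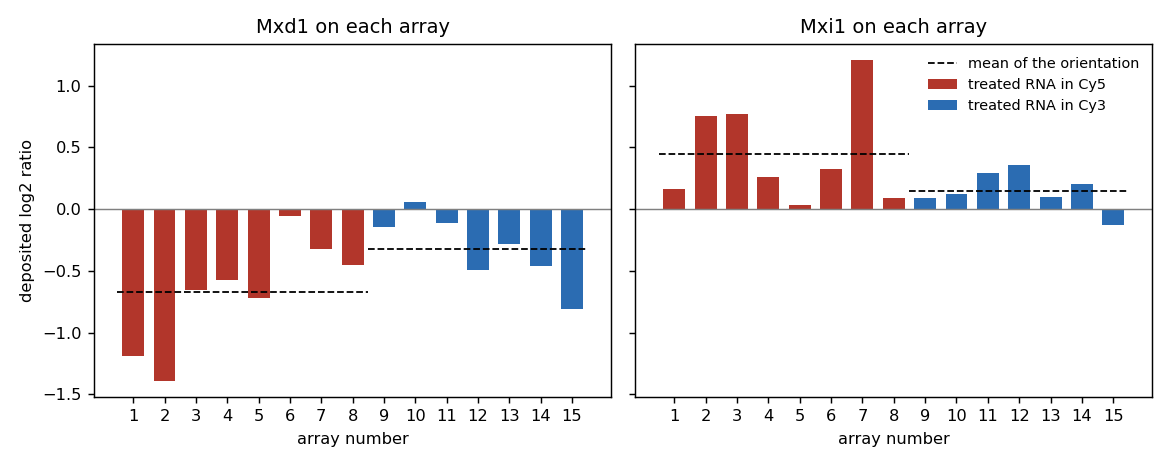
Deposited log2 ratio of Mxd1 (left) and Mxi1 (right) on each of the 15 arrays, with red bars for forward arrays (treated RNA in Cy5) and blue bars for the dye swaps; dashed lines are the mean of each orientation. Mxd1 is above 0 on array 10 and Mxi1 below 0 on array 15, and on the other arrays Mxd1 is below and Mxi1 above 0.

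Among the genes with values on all 15 arrays, 0.217% were below 0 on 14 or 15 arrays and 0.157% were above 0 on as many. Since both members were picked on this contrast, nothing follows from these shares. Within each array, Mxd1 lay between the 1.33rd percentile of all genes (array 2) and the 59.6th (array 10), and Mxi1 between the 33.4th (array 15) and the 98.8th (array 7). Mxi1 exceeded Mxd1 on every one of the 15 arrays, by 0.06 on array 10 up to 2.14 on array 2, a direction that the choice of the pair fixes. No member value was missing or a placeholder. One value of each gene lay within 0.0015 of a log2 ratio of whole numbers up to 6 plus the constant of its array. Spots of very low signal give such values, but other spots can match as well, so a match does not show low signal. The matching values were Mxd1 on array 8 and Mxi1 on array 6, where 3.61% and 11.8% of all values matched.

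Both members were farther from 0 on the forward arrays than on the dye swaps, and neither difference passed the test. Mxd1 had a mean of -0.67 ± 0.44 (SD, n = 8) on the forward arrays and of -0.32 ± 0.29 (SD, n = 7) on the dye swaps. The difference, forward minus swap, called the dye effect, was -0.35 ± 0.19 (SE), with an adjusted p of 0.337 in limma over 9720 genes. Mxi1 had means of 0.45 ± 0.42 (SD, n = 8) and 0.15 ± 0.16 (SD, n = 7). Its dye effect was 0.30 ± 0.17 (SE), with an adjusted p of 0.340 in limma. The dye effect passed in 2.61% of all genes. The members were not chosen on this difference, so it could be tested. If the deposited ratio were instead Cy5 over Cy3 on every array and the swaps had to be turned, the treatment estimates would be -0.17 for Mxd1 and 0.15 for Mxi1, with the same signs and smaller sizes.

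The arrays fall into sets by their placeholder values, a property of the scanned files and not a batch named in the labels. Set A holds arrays 1 to 4, 9, 10, 12 and 14, set B arrays 5, 6, 11 and 13, and set C, with under 50 placeholders each, arrays 7, 8 and 15. The estimate of Mxd1 was -0.61 in set A, -0.29 in set B and -0.60 in set C. That of Mxi1 was 0.34, 0.19 and 0.26. Mxd1 was nearer to 0 in set B than in the other sets. Mxi1 in set C had an SE of 0.31 and rested on array 7, without which it was at -0.02. The difference between the sets was not tested. Arrays 11 and 13 of set B also had the narrowest spread over all probes, with SDs of 0.37 and 0.35, against 0.82 on array 7, the widest.

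**Figure D2:**
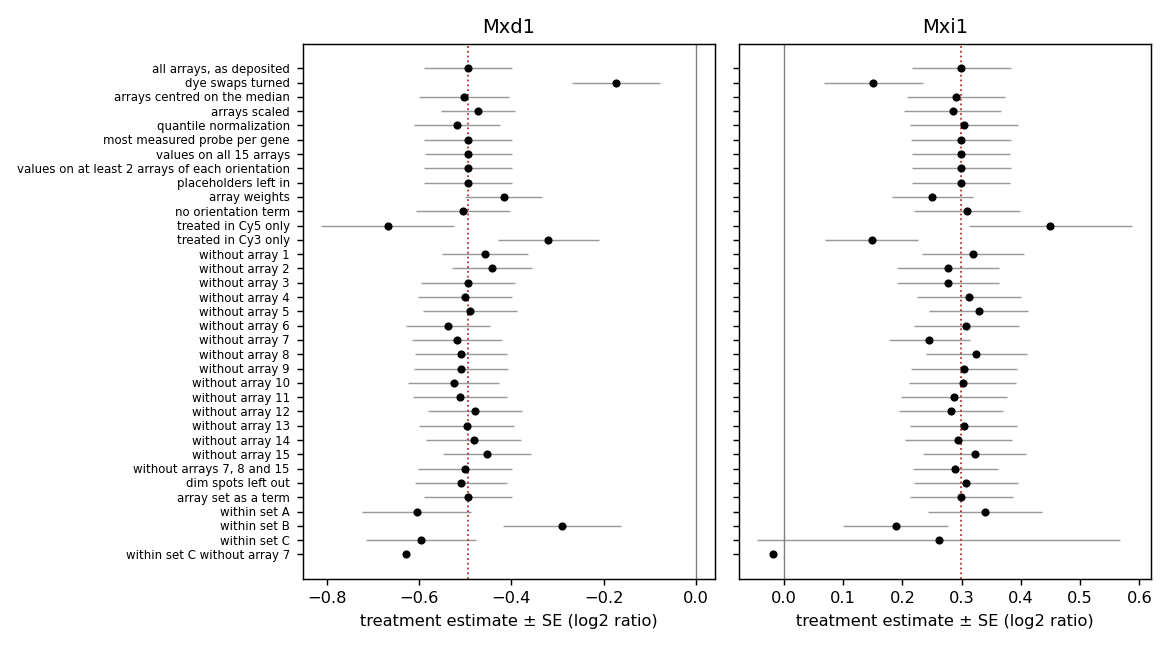
Treatment estimate ± SE (log2 ratio) of Mxd1 (left) and Mxi1 (right) for all arrays as deposited, which the dotted line marks, and for each other setting, array set and array left out. Mxd1 stays between -0.67 and -0.17 and Mxi1 between -0.02 and 0.45; the far ends are the forward arrays alone, and the ends nearest 0 are the turned dye swaps for Mxd1 and set C without array 7 (2 arrays, no SE) for Mxi1.

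The 2 members did not vary together detectably from array to array. Over 15 arrays, Pearson's r of Mxd1 and Mxi1 was -0.13 (permutation p = 0.624) and Spearman's rho 0.014 (permutation p = 0.963). Without arrays 1 and 2, the farthest from the median of Mxd1, r was 0.072 over 13 arrays (permutation p = 0.814, rho 0.22). Within the 8 forward arrays, r was 0.036 (exact permutation p = 0.945, rho 0.21), and within the 7 dye swaps 0.36 (exact permutation p = 0.450, rho 0.14). The values within an orientation do not depend on the direction of the ratio. In set A alone, r was -0.56 over 8 arrays (exact permutation p = 0.122, rho -0.67). All tests were two-sided. Adjusted over these 5 relations, the p-values of r lay between 0.612 and 0.945. The array lowest for Mxd1, array 2, was among the highest for Mxi1, whereas array 15 was low for both.

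**Figure D3:**
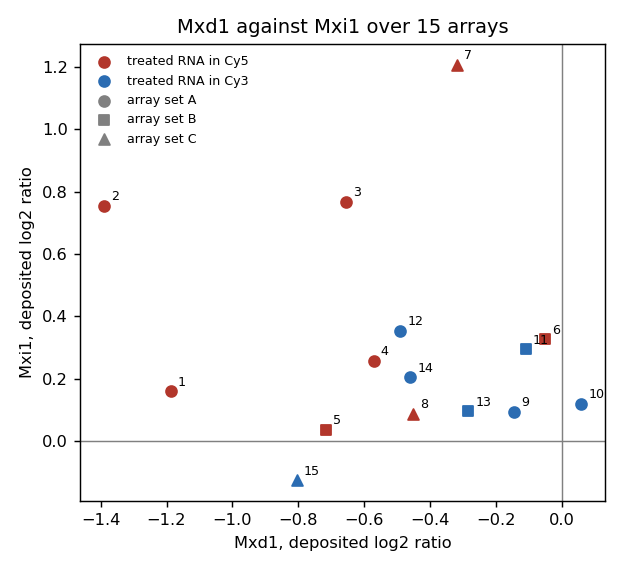
Deposited log2 ratio of Mxi1 against that of Mxd1, 1 point per array with its number; colour gives the dye of the treated RNA and shape the array set. Most points lie in the upper left, and no line through the 15 points is visible (r = -0.13).

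Of the 11 further genes listed for the MAX network, 7 were measured: Max, Mxd3, Mxd4, Mga, Mlx, Mlxip and Mlxipl. No probe with a single gene symbol stood for Myc, Mycn, Mycl or Mnt, so these were not analysed here. None of the 7 passed limma's test, which called 0.0412% of all genes (4 of 9720). At an unadjusted p under 0.05, 2 of the 7 passed (Mxd3 and Mxd4), against 7.02% of all genes. The list had 3 genes above 0 and 4 below, with a median of -0.022, against a median of 0.0054 over all genes.

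The other Mad genes were Mxd3 and Mxd4, whose proteins also pair with Max and recruit Sin3. Mxd3 was at 0.20 ± 0.09 (SE, n = 15 arrays; adjusted p = 0.678 in limma) and above 0 on 9 arrays, from -0.18 on array 6 to 1.02 on array 9. Mxd4 was at 0.16 ± 0.06 (adjusted p = 0.551 in limma) and above 0 on 11 arrays, from -0.06 on array 8 to 0.53 on array 3. The probes of Mxd4 were at 0.24 ± 0.08 and 0.09 ± 0.06. Of the 4 Mad genes measured, Mxd1 had an estimate below 0 and Mxi1, Mxd3 and Mxd4 above 0. With the dye swaps turned, Mxd3 would be at -0.05 and Mxd4 at 0.05.

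Max, the shared partner, was at -0.09 ± 0.08 (SE; adjusted p = 0.820 in limma), from -0.77 on array 15 to 0.30 on array 3, and its probes were at -0.03 ± 0.10 and -0.15 ± 0.12. Mga, a large protein that also binds Max, was at -0.09 ± 0.08 (adjusted p = 0.828 in limma). Both lay just over 1 SE below 0. The values do not show that either was unchanged. Max was at -0.03 without array 15 and Mga at -0.05 without array 7.

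Mlx is the Max-like partner of Mlxip (MondoA) and Mlxipl (ChREBP), which answer to glucose, and it also pairs with some Mad proteins. Mlx was at -0.02 ± 0.07 (SE; adjusted p = 0.960 in limma). Mlxip was at -0.15 ± 0.07 (adjusted p = 0.727 in limma). It was below 0 on all 7 dye swaps, with a mean of -0.41, and had a mean of 0.12 on the forward arrays. Its dye effect of 0.53 ± 0.15 (adjusted p = 0.0656 in limma) was the farthest from 0 of the 9 network genes, members included, and did not pass. Mlxipl was at 0.12 ± 0.13 (adjusted p = 0.850 in limma) and spread widely, from -0.52 on array 10 to 1.35 on array 15. Without array 15 its estimate was 0.013.

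**Figure D4:**
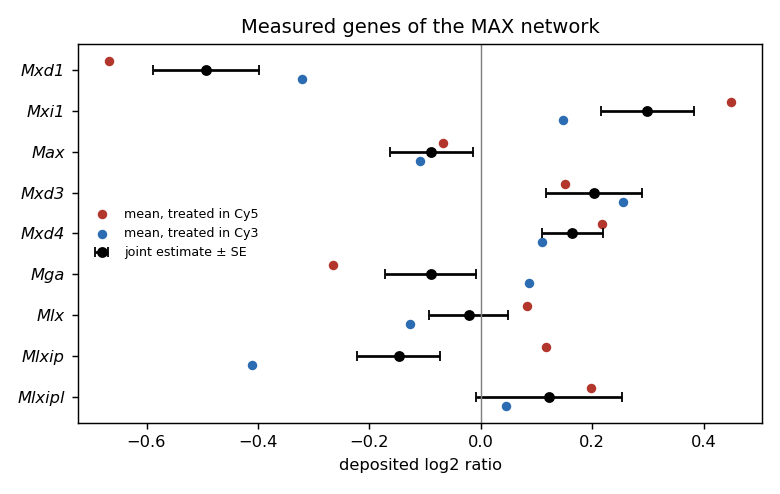
Treatment estimate ± SE (black, log2 ratio) of the 9 measured genes of the MAX network, with the mean of the 8 forward arrays (red) and of the 7 dye swaps (blue). Mxd1 at -0.49 and Mxi1 at 0.30 are the ends, and they were chosen on this contrast; for Mga, Mlx and Mlxip the orientations lie on opposite sides of 0.

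The corepressor that Mad proteins recruit is the Sin3 complex with its histone deacetylases. Of 23 listed genes 14 were tested, 6 above 0 and 8 below, with a median of -0.0068. None passed, and none had an unadjusted p under 0.05 in limma. The deacetylases Hdac1 and Hdac2 were at -0.01 ± 0.08 and 0.04 ± 0.08 (SE). Of the genes with the smallest p, Sap18 was at 0.06 ± 0.05 and Rbbp7, a histone-binding subunit, at 0.04 ± 0.05, and Rbbp4 was at -0.22 ± 0.19 and Phf12 at -0.39 ± 0.33. The last 2 had wide errors, and without array 8 they were at -0.04 and -0.12.

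Cofactors and regulators of Myc did not pass either. Of 21 listed genes 13 were tested, 6 above 0 and 7 below, with a median of -0.021 and 0 at an unadjusted p under 0.05 in limma. Fbxw7, the ubiquitin ligase that marks Myc for degradation, was at 0.15 ± 0.11 (SE), and Ep400 at 0.09 ± 0.08. Skp2, another ligase acting on Myc, was at -0.18 ± 0.10 and Ruvbl1, an ATPase of chromatin complexes, at -0.17 ± 0.10. Skp2 and Ruvbl1 had means of -0.37 and -0.35 on the forward arrays, and of 0.0003 and -0.002 on the dye swaps. Fbxw7 and Ep400 had means of 0.06 and -0.04 on the forward arrays, and of 0.24 and 0.22 on the dye swaps. None of these dye effects passed.

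Genes that Myc activates through E-boxes, on which Mad proteins act in the opposite sense, were mostly below 0 by small amounts. Of 48 listed genes 38 were tested, 13 above 0 and 25 below (65.8%), where 48.0% of all genes were below. Their median was -0.040, and none passed limma's test, with 1 at an unadjusted p under 0.05, against 7.02% of all genes. By array, the median of the list was below 0 on 1 of 8 forward arrays and on 6 of 7 dye swaps, so the orientations differed. With the dye swaps turned the median would be 0.033, and without arrays 7, 8 and 15 it was 0.0076.

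Ccnd2, a cyclin of the G1 phase and a known site of exchange between Myc and Mxd1, was at -0.14 ± 0.06 (SE; adjusted p = 0.656 in limma) and below 0 on 12 of 15 arrays. Rrp9, of ribosomal RNA processing, was at -0.12 ± 0.07. On the other side, the cap-binding factor Eif4e was at 0.16 ± 0.09 and the helicase Ddx21 at 0.12 ± 0.08. Ncl (nucleolin) was at 0.04 ± 0.06, Cad, the entry enzyme of pyrimidine synthesis, at 0.08 ± 0.13 and the kinase Cdk4 at 0.02 ± 0.07. For Ncl, Cad and Cdk4 the means of the orientations lay on opposite sides of 0, and none of these dye effects passed. The means of Cdk4 were 0.26 on the forward arrays and -0.22 on the dye swaps. Cdk4 was at -0.02 after scaling of the arrays and at -0.03 after quantile normalization. Odc1, ornithine decarboxylase, had values on 9 arrays only, at -0.29 ± 0.52, with means of 1.42 and -1.99 in the orientations.

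Genes repressed by Myc showed members on both sides. Of 12 listed 8 were tested, 3 above 0 and 5 below, with a median of -0.030; none passed, and 3 had an unadjusted p under 0.05 in limma, against 7.02% of all genes. With the dye swaps turned, the median would be 0.060. Cdkn1b, the cell cycle inhibitor p27, was at 0.41 ± 0.13 (SE; adjusted p = 0.495 in limma) and above 0 on 12 of 15 arrays. Gas1, a growth arrest gene, was at 0.32 ± 0.14. Cdkn1c, the inhibitor p57, was at -0.16 ± 0.06, with means of 0.15 on the forward arrays and -0.47 on the dye swaps. Its dye effect of 0.63 ± 0.12 passed (adjusted p = 0.0182 in limma). Cdkn1a, the inhibitor p21, was at -0.06 ± 0.05.

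Hypoxia and glycolysis genes were tested because Mxi1 is a hypoxia target; Mxi1 was left out of their count. Of 24 listed genes 16 were tested, 8 above 0 and 8 below, with a median of 0.0080. None passed, and 2 had an unadjusted p under 0.05 in limma, both below 0, against 7.02% of all genes at such a p. These were Ddit4, an inhibitor of mTOR signalling, at -0.41 ± 0.09 (SE; adjusted p = 0.179) and Bhlhe40, an E-box repressor, at -0.21 ± 0.06 (adjusted p = 0.457). The list was chosen with earlier results of these data known, so nothing follows from this count. Ddit4 had means of -0.10 on the forward arrays and -0.72 on the dye swaps. Bhlhe40 had means of -0.47 on the forward arrays and 0.05 on the dye swaps. Its dye effect of -0.52 ± 0.13 passed (adjusted p = 0.0417 in limma). P4ha2, a collagen hydroxylase, was at 0.17 ± 0.16 and the glycolytic enzyme Pgam1 at 0.06 ± 0.06. As deposited, Mxi1, at 0.30, was on the other side of 0 from the treatment estimates of Ddit4 and Bhlhe40. With the dye swaps turned, Ddit4 would be at 0.31 and Mxi1 at 0.15, on the same side, and Bhlhe40 at -0.26.

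FOXO targets, genes of growth arrest and stress, had 10 of 16 tested, 6 above 0 and 4 below, with a median of 0.017. None passed, and 2 had an unadjusted p under 0.05 in limma, against 7.02% of all genes. Sesn1, a stress-induced sestrin, was at 0.55 ± 0.11 (SE; adjusted p = 0.128 in limma) and above 0 on 13 arrays; with the array set as a term it passed (adjusted p = 0.0192), as it did without array 6 (adjusted p = 0.0475). With array weights it was at 0.40 (adjusted p = 0.280 in limma), and with the dye swaps turned it would be at -0.10 (adjusted p = 0.669 in limma). The array set term was added after the data were seen. The list was chosen with earlier results of these data known, so Sesn1 passing is no support. Txnip, which binds thioredoxin and is a classic target of Mlxip, was at -0.31 ± 0.07 (adjusted p = 0.244 in limma) and below 0 on 14 arrays. Pink1 was at 0.12 ± 0.25, with values on 14 arrays, and Klf2 at -0.35 ± 0.23.

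Other factors of the E-box, including the Id proteins that block them, had 12 of 20 tested, 3 above 0 and 9 below, with a median of -0.058. With the dye swaps turned the median would be 0.11. None passed, and 1 had an unadjusted p under 0.05 in limma, against 7.02% of all genes. That was Id2, at -0.55 ± 0.13 (SE; adjusted p = 0.250 in limma) and below 0 on 13 of 15 arrays. The list was chosen with earlier results of these data known, so nothing follows from this count. Id1 was at -0.19 ± 0.10, Tcf12 at 0.06 ± 0.08 and Id3 at 0.22 ± 0.24. The sign of Id3 turned with values matching a log2 ratio of small whole numbers left out (-0.23).

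**Figure D5:**
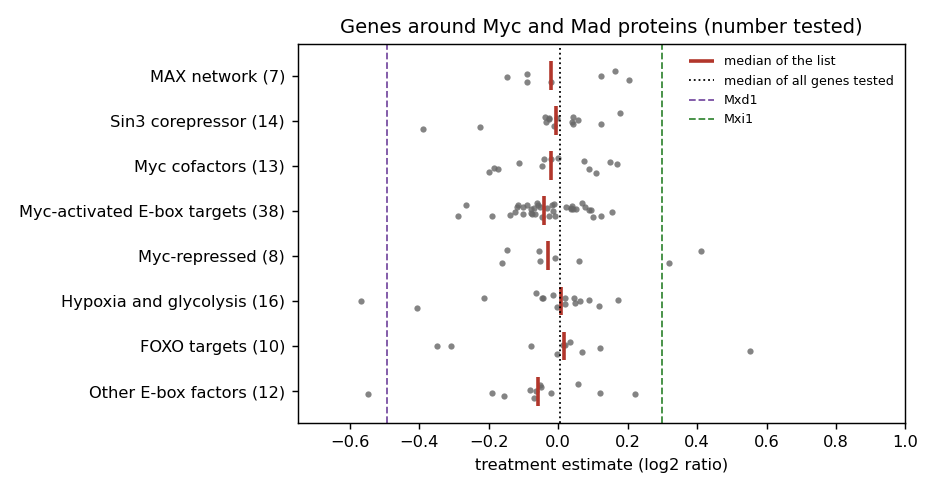
Treatment estimates (log2 ratio) of the genes in 8 lists, 1 point per gene with random vertical scatter, the number tested in parentheses, red ticks for list medians, a dotted line for the median of all genes and dashed lines for Mxd1 and Mxi1. The list medians lie between -0.058 and 0.017. Sesn1 at 0.55, Id2 at -0.55 and, in the hypoxia list, Pdk1 at -0.57 ± 0.34 (SE) are single genes farther from 0 than Mxd1.

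Mxd1 is known to be abundant in maturing myeloid cells, so myeloid markers are given beside it. Of 9 measured markers 8 were below 0, with a median of -0.12. None passed limma's test and 4 had an unadjusted p under 0.05, against 7.02% of all genes. The list was chosen with earlier results of these data known, so nothing follows from this share. With the dye swaps turned, 3 of 9 would be below 0, with a median of 0.093. As deposited, the antimicrobial peptide Camp was at -0.30 ± 0.09 (SE), S100a9 at -0.18 ± 0.06 and C1qb at -0.18 ± 0.08, while Cd68 was at 0.0059 ± 0.068. The dye effect of S100a9 passed (adjusted p = 0.0126 in limma), as did that of 2.61% of all genes. The median of the 9 markers lay between -0.15 and 0.04 on the forward arrays, and between -0.43 and 0.0060 on the dye swaps. Its middle value was -0.050 over the forward arrays and -0.145 over the dye swaps. These ranges overlapped, and the difference between orientations was not tested. The part of these cells in the Mxd1 value was not tested. Markers of the line itself had medians of 0.060 over 8 pluripotency genes, 0.072 over 4 B cell and 0.030 over 4 T cell genes. The pluripotency genes spread to both sides, from Pou5f1 at -0.39 ± 0.22 to Esrrb at 0.45 ± 0.17, and none passed limma's test. The remaining medians were -0.073 over 3 erythroid and 0.048 over 7 fibroblast genes. A ratio of 2 RNAs gives no level, so whether these markers are expressed in the line cannot be read from these values.

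The genes whose values followed those of a member most closely over the arrays were named by Pearson's r, among 9407 genes with values on at least 13 arrays. For Mxd1 these were Engase (r = 0.80), Ppp1r1a (0.79) and Dlec1 (0.79), and in the opposite sense Phf13 (-0.88), Atp6v1g2 (-0.86) and Cox4i1 (-0.85). For Mxi1 these were Akr7a5 (r = 0.85), Recql (0.83) and Gnao1 (0.82), and in the opposite sense Pdzd2 (-0.93), Fndc10 (-0.87) and Dgat2 (-0.86). Each rests on 15 arrays, which share dye orientation and spread. With the mean of each orientation removed, r moved to 0.77, 0.75 and 0.76 for the first 3 genes and to 0.81, 0.80 and 0.79 for the first 3 of Mxi1. In that order, which does not depend on the direction of the ratio, Engase, Ppp1r1a and Dlec1 were 4th, 10th and 8th for Mxd1, and Akr7a5, Recql and Gnao1 were 2nd, 3rd and 4th for Mxi1, so other genes came closer. The 3 genes in the opposite sense kept the first 3 places for each member. Over all genes, 1% had r above 0.64 with Mxd1 and 1% had r above 0.63 with Mxi1. The treatment estimates of the genes most like Mxd1 were near 0: -0.01 ± 0.07 for Engase, 0.02 ± 0.08 for Ppp1r1a and -0.04 ± 0.12 for Dlec1.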

How the data were processed

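The deposited table holds log2 ratios of the 2 channels for 15 arrays; base 2 was read from the values, while how they were normalized and background-corrected, and in which direction, was not given in the sources used here. Dyes are per the labels. Between 19213 and 19973 probes per array were measured, column medians lay between -0.019 and 0.063, and arrays of opposite orientation correlated at a median r of -0.058 over probes. Values above 10 in size were set missing as placeholders. Symbols came from the platform annotation (1 symbol for 13891 probes, several for 5, none for 6309); 13855 were updated through RefSeq (GRCm38.p6). Probes of a gene were averaged. Genes measured on 4 or more arrays of either orientation (both required) were fitted in limma 3.58.1 (R 4.3.3; lmFit, eBayes) with an orientation term, two-sided, Benjamini-Hochberg adjusted p under 0.05 over 9720 genes. The fit was tested on simulated data. Correlations used scipy 1.17.1. The number of arrays limits the precision.

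The members, lists and tests were chosen with earlier results of these data known. Named were the members, the MAX network, fixed genes of the other lists, in each list the 2 genes of smallest p on either side of 0, and the 3 genes of highest and of lowest r with each member. List genes farther from 0 than Mxd1, and those whose dye effect passed, were named as well. Markers named are examples chosen after their values were seen. Alternatives were the direction, normalization, filters, weights, orientation term, probe choice, each array left out and, added after seeing the data, array sets.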

Additional observations from a re-analysis of the deposited data

Results flagged for a closer look

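Among the 9 network genes in each orientation, 18 groups of arrays, 1 array stood apart by the gap to its neighbours. Mlxipl on array 15, a dye swap, was at 1.35, while the other 6 dye swaps lay between -0.52 and 0.08. Chance alone gives about 1 such array in 20 groups. Neither Mxd1 nor Mxi1 had such an array.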

How the results depend on the processing

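The estimate of Mxd1 lay between -0.67 (forward arrays alone) and -0.17 (dye swaps turned), and that of Mxi1 between -0.02 (set C without array 7) and 0.45 (forward arrays alone); both genes were chosen on this contrast, so a sign kept under the other alternatives is no support. With 1 array left out, Mxd1 lay between -0.54 (without array 6) and -0.44 (without array 2) and Mxi1 between 0.25 (without array 7) and 0.33 (without array 5). Neither dye effect passed under the alternatives run; with the swaps turned it is the contrast that chose the members and is not counted. No paired analysis was possible because all arrays form 1 group and no number is shared. The count of genes called for treatment, 4, was 254 with the dye swaps turned, 8 with the most measured probe, 8 with placeholders left in, 11 with array weights, 20 with the array set as a term, 0 in each orientation alone and 0 without arrays 7, 8 and 15. The count for dye, 254, was 4 with the swaps turned, 676 with array weights and 571 without arrays 7, 8 and 15. With 1 array left out, these counts ran from 0 (without array 10) to 7 (without array 6), and from 99 (without array 6) to 431 (without array 7). With the swaps turned, Cdkn1c was at 0.31 and passed (adjusted p = 0.0182), and so did Bhlhe40 at -0.26 (adjusted p = 0.0417). S100a9, Pim1 and Fbl passed as well (adjusted p = 0.0126, 0.0165 and 0.0470 in limma). Turning exchanges the roles of treatment and dye by construction; the cause of the other shifts was not tested. Signal over background is unknown, and each member rests on 1 probe.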
